A study of Homo sapiens with 6 samples.

Results

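Stathmins are small proteins that bind tubulin, and the human family is made up of STMN1, STMN2, STMN3 and STMN4. The members were taken by symbol from the deposited count table, which holds all 4 of them among 35474 genes. The family was chosen with results of this comparison already known, among them the higher STMN4 count in siBAP18, so the differences between the groups given for its members are descriptions and carry no test. RNA was measured in A549, a human lung adenocarcinoma cell line, 48 h after transfection. There were 3 cultures with siRNA against BAP18 (siBAP18) and 3 with a non-specific siRNA (siCtrl), and poly(A)-selected RNA from each culture was sequenced. BAP18 is a chromatin protein encoded by C17orf49. It is not stated which of the 3 BAP18 siRNAs described in the study these cultures received, and all 6 libraries come from 1 cell line that had been transfected with an siRNA.

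Stathmins hold soluble tubulin heterodimers in a complex that cannot polymerize and promote the shrinkage of microtubules, and phosphorylation by cell-cycle and stress kinases releases the tubulin. STMN1 is cytosolic, widely expressed and abundant in proliferating cells, where it must be switched off for the mitotic spindle to form. STMN2, STMN3 and STMN4 carry an additional N-terminal segment that anchors them to Golgi and vesicle membranes, and they are known mainly from neurons, where they act in growing axons and dendrites.

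The 6 libraries held between 42094524 and 56548620 counts, and no replicate was a copy of another. BAP18 itself was measured first as a check of the labels. C17orf49 had 743, 751 and 705 counts in siCtrl and 120, 137 and 108 counts in siBAP18, a log2 fold change of −2.65 (SE 0.111, Benjamini-Hochberg adjusted p = 7.31e-16 in edgeR's quasi-likelihood test). Mitochondrial transcripts took 6.86% to 7.43% of counts in siCtrl and 5.27% to 6.14% in siBAP18. Of the 6 epithelial markers (such as KRT8, KRT18 and EPCAM) and the 8 genes known as abundant in A549 (such as AKR1B10 and ALDH3A1), all were measured above the filter on low counts. The summed level of the epithelial markers was 4380 to 4670 RPKM in siCtrl and 3680 to 4270 RPKM in siBAP18, and that of the A549-abundant genes was 7200 to 7290 and 4500 to 4680 RPKM. At an adjusted p under 0.05 in the same test, 4 epithelial markers were lower in siBAP18 and 1 was higher. Among them were CDH1 at a log2 fold change of −1.32 and KRT7 at 0.43. Of the A549-abundant genes 7 were lower, all but ALDH3A1. Over all genes tested, 25.1% were lower and 24.5% higher at this threshold. RPKM is the authors' count per kilobase of exon length relative to the library total, and it is used here wherever the levels of different genes are compared.

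STMN1 is on the minus strand of chromosome 1 (chr1:25884181-25906991, GRCh38), and GENCODE 29 gives it 9 transcripts of 4 to 5 exons from 8 start positions. STMN3 is on the minus strand of chromosome 20 (chr20:63639705-63657682), with 5 transcripts of 3 to 5 exons. The counts are sums over all exons of a gene, so they do not say which transcript or start was used. The STMN1 span also holds the processed pseudogenes SNRPFP2 and AL033528.1 on the opposite strand and MIR3917 on its own strand, whereas no other annotated gene overlaps STMN2, STMN3 or STMN4.

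RefSeq promoter windows (GRCh38.p14, 250 bases before to 50 after a start) matched 3 starts of STMN1 and 1 start of STMN3. None matched STMN2 or STMN4. The stretches below are the sequence upstream of the start that holds no annotated exon, for the 1 STMN1 window with the most kinds of searched words and for STMN3. They are shown because both genes had fewer reads in siBAP18. Each is read 5′ to 3′ on the gene's own strand, and capitals mark each searched word, on either strand, that lies wholly inside the stretch.
STMN1 upstream, chr1:25906467-25906669, minus strand: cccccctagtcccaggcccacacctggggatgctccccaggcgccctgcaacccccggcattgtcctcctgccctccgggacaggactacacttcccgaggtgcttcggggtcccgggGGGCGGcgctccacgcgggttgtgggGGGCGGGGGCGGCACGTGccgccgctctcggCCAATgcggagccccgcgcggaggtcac
STMN3 upstream, chr20:63652767-63653016, minus strand: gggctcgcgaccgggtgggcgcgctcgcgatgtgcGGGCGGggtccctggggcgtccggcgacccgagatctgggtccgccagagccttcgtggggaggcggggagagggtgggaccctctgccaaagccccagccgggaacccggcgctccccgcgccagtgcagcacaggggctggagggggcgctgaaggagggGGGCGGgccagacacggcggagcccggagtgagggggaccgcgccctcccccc

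Both stretches were rich in G and C, at 75.4% for STMN1 and 78% for STMN3. The words searched on both strands of each whole window were those of E2F (TTTCCCGC, TTTGGCGC, TTTCGCGC or TTTGCCGC), the cell-cycle CHR element (TTTGAA or TTCGAA), the CCAAT box, AP-1 (TGACTCA), the CRE (TGACGTCA), the E-box of BHLHE40 and BHLHE41 (CACGTG), EGR (GCGTGGGCG or GCGGGGGCG), TATAAA and the GC box (GGGCGG). In the STMN1 window the GC box occurred 3 times, CACGTG at −94 and at −50 from the start, and CCAAT at −75. The EGR word GCGGGGGCG at −104 overlaps 2 of the GC boxes. The E2F word TTTGGCGC at −38 lies in an exon of another STMN1 transcript and is therefore not printed, and the CACGTG at −50 runs past the end of the stretch and is not marked. In the STMN3 window only the GC box was found, at −215 and −53. Over 35116 promoter windows of the same length, GGGCGG occurred in 45%, CCAAT in 34.6%, CACGTG in 7.26%, GCGGGGGCG in 5.07% and any of the E2F words in 3.31%. Another STMN1 window held only the E2F word TTTCCCGC, at −250, and the remaining window held only GC boxes. The printed STMN1 window was picked for its words, so nothing is read from its matches beside the shares over all windows. All these matches describe the letters of the windows only.

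STMN1 was the most abundant member in every library, and its mRNA was lower in siBAP18. It had 31540, 26244 and 28196 counts in siCtrl replicates 1, 2 and 3, and 23603, 23606 and 17359 counts in siBAP18 replicates 1, 2 and 3. Relative to the TMM-scaled library totals this was 593, 564 and 603 CPM (counts relative to that total) in siCtrl and 434, 404 and 428 CPM in siBAP18. Every siBAP18 library was thus below every siCtrl library, with 131 CPM between the nearest libraries of the groups.

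Mean STMN1 expression was 587 ± 20.2 CPM (SD, n = 3) in siCtrl and 422 ± 15.7 CPM (SD, n = 3) in siBAP18, which is 28.1% lower. The fitted log2 fold change was −0.48 (SE 0.0658), and 17.8% of the 20776 genes that passed the filter on low counts had a lower value. Even so, STMN1 stayed among the abundant transcripts. Its rank by mean RPKM among all genes listed was 524 in siCtrl and 778 in siBAP18. The processed pseudogene STMN1P1, a near copy of the STMN1 mRNA on chromosome 12, held 6 to 42 counts per library. How many reads could belong to either was not measured. The libraries are bulk RNA, in which fewer cells of a type and less RNA per cell cannot be told apart.

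STMN3 (SCLIP), which is membrane-anchored and regulates neurite branching, was measured at a far lower level than STMN1 and was also lower in siBAP18. Its counts were 1265, 991 and 1100 in siCtrl and 970, 947 and 752 in siBAP18. On the TMM scale these were 23.8, 21.3 and 23.5 CPM in siCtrl, against 17.8, 16.2 and 18.6 CPM in siBAP18. The groups did not overlap, but their nearest libraries were only 2.76 CPM apart, about the range within siBAP18. The means were 22.9 ± 1.36 CPM and 17.5 ± 1.20 CPM (SD, n = 3 each), a value 23.5% lower in siBAP18. The fitted log2 fold change of STMN3 was −0.39 (SE 0.0793), and 22.2% of tested genes had a lower one.

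STMN4 (RB3), the member otherwise known from brain, was the one with more reads in siBAP18. It spans chr8:27235323-27258420 on the minus strand, with 7 transcripts of 5 to 8 exons. Its 0, 0 and 2 counts in siCtrl stood against 372, 369 and 262 counts in siBAP18. The floor was set at 3 counts, which is 0.0564 to 0.0645 CPM in the siCtrl libraries, and all 3 of them were under this floor. The siBAP18 libraries stood at 6.84, 6.32 and 6.46 CPM, a spread of only 0.267 CPM (SD, n = 3) around a mean of 6.54 CPM. Against a siCtrl level of 3 counts per library, STMN4 was at least 106-fold higher in siBAP18, or at least 6.73 on the log2 scale. The lowest siBAP18 library was at least 98-fold above the highest siCtrl floor. The floor is a chosen number of counts and not an upper confidence limit. Where both reads of a pair were counted, 3 counts stand for fewer than 3 fragments. The folds are thus lower bounds against that floor only. They cover neither all counting error nor differences between cultures.

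At 1.99 ± 0.101 RPKM (SD, n = 3), STMN4 was still a modestly expressed gene in siBAP18, where its rank by mean RPKM was 10489 and 70.4% of listed genes were lower. In siCtrl its rank was 31279. Of all listed genes, 9248 had 3 or fewer counts in every siCtrl library, and 307 of these had more than 3 counts in every siBAP18 library. STMN4 was the highest of them by mean CPM in siBAP18, which makes no allowance for exon length. Apart from STMN4, the only gene of this kind with at least 100 counts in every siBAP18 library was RP11-331D5.2, with 244, 195 and 115 counts. By mean RPKM in siBAP18 this gene stood above STMN4, at 2.31 against 1.99. Because the family was chosen with the STMN4 counts known, nothing is read from its rank by CPM. In the count table the value 2 was 4.11 times as frequent as the value 1, so both reads of a pair appear to have been counted in most cases. The 2 counts of STMN4 in siCtrl replicate 3 may therefore be 1 fragment.

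STMN2 (SCG10), known from axon growth and as a transcript whose splicing TDP-43 guards in motor neurons, was not detected above the floor in either group. It lies on the other arm of the same chromosome as STMN4 (chr8:79610814-79666175, plus strand) and has 3 transcripts. Its counts were 2, 0 and 0 in siCtrl and 2, 2 and 0 in siBAP18. No library exceeded 0.0158 RPKM, where 3 counts correspond to 0.0225 to 0.0302 RPKM. It did not pass the filter on low counts, and no fold change is given for it. A difference in STMN2 between the groups was not detectable at this depth.

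**Figure D1:**
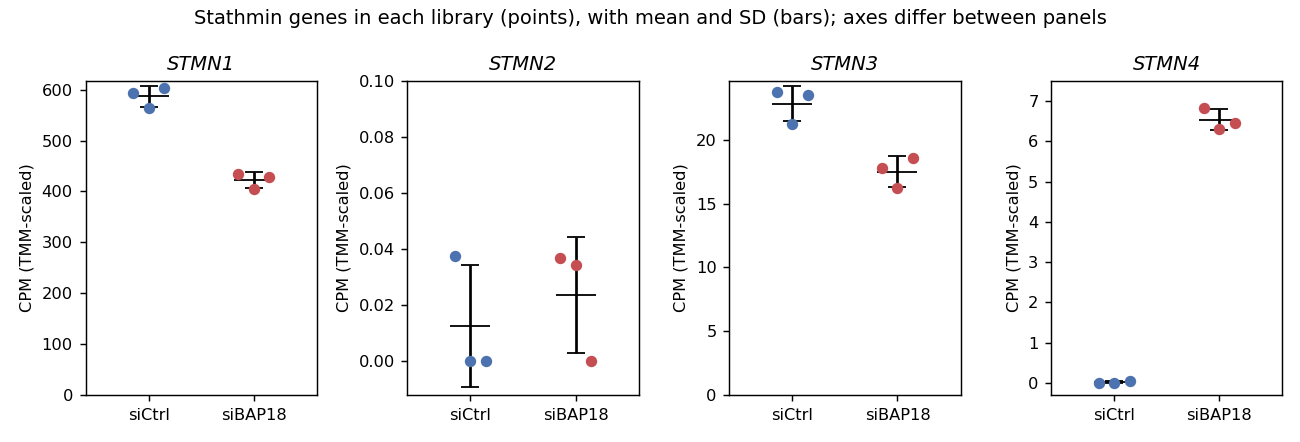
Level of each stathmin gene in CPM on the TMM-scaled library total (y axis, a different scale in each panel) in the 3 siCtrl and 3 siBAP18 libraries (x axis). Points are libraries, long bars the group mean and short bars 1 SD. STMN1 and STMN3 lie lower in every siBAP18 library, STMN4 lies between 6.32 and 6.84 in siBAP18 and at or near 0 in siCtrl, and the points of STMN2 stand for 2 counts or 0.

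Of the 4 members, 3 passed the filter on low counts, and in all 3 the values of the groups did not overlap. Groups without overlap made up 56.6% of all genes tested. STMN1 and STMN3 had the lower and STMN4 the higher levels in siBAP18. Over all genes tested, 25.1% had an adjusted p under 0.05 and were lower and 24.5% were higher in siBAP18 (edgeR's quasi-likelihood test, adjusted by Benjamini-Hochberg), and 8.46% also passed an absolute log2 fold change of 1. Among the members, STMN4 alone lay beyond that fold change. Because the family was chosen on this contrast, nothing is read from how its counts stand to these shares. STMN4 passed the filter only through the siBAP18 libraries.

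**Figure D2:**
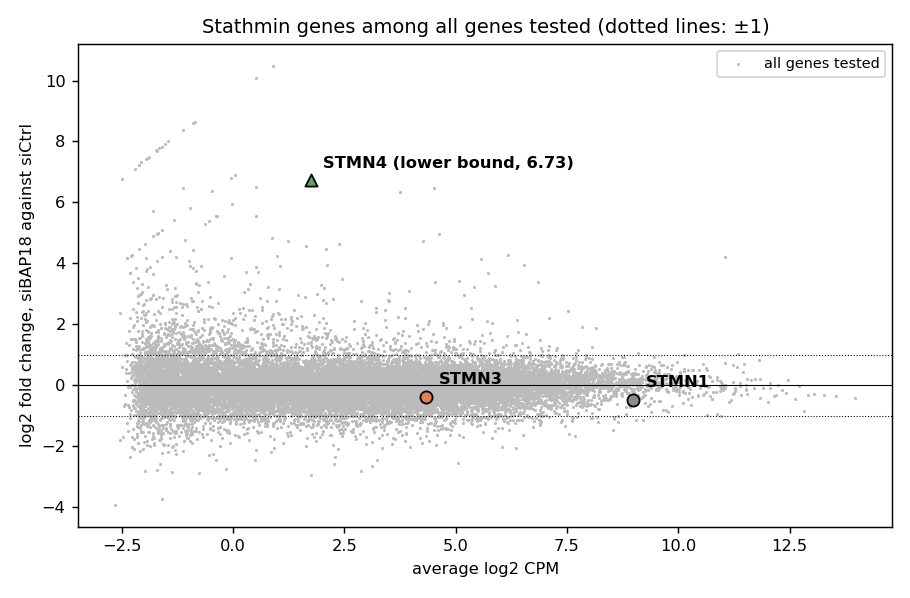
Log2 fold change of siBAP18 against siCtrl (y axis) by average log2 CPM (x axis) for all 20776 genes tested (grey) and for STMN1, STMN3 and STMN4. The grey points are fitted values, while STMN4 (triangle) is placed at its lower bound of 6.73. STMN1 at −0.48 and STMN3 at −0.39 lie inside the dotted lines at 1 and −1.

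The order of the members by RPKM was the same in every library for the more abundant ones. STMN1 stood at 93.5, 90.7 and 95.2 RPKM in siCtrl and 69.5, 66.4 and 65.6 RPKM in siBAP18. STMN3 followed with 7.78, 7.10 and 7.70 RPKM in siCtrl and 5.92, 5.52 and 5.89 RPKM in siBAP18. In siCtrl, STMN2 and STMN4 were both under their floors and cannot be ordered. In siBAP18, STMN4 came next with 2.09, 1.98 and 1.89 RPKM, above STMN2 and below STMN3 without overlap.

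Summed over the family, stathmin mRNA was 101 ± 2.63 RPKM in siCtrl and 74.9 ± 2.28 RPKM in siBAP18 (SD, n = 3 each), which is 25.5% lower. STMN1 accounted for nearly all of this difference, at −26 RPKM, beside −1.75 RPKM for STMN3 and 1.98 RPKM for STMN4. The amount of STMN4 in siBAP18 was thus of the size of the difference in STMN3, and it equalled 7.16% of the summed difference of STMN1 and STMN3. STMN1 made up 92.5% ± 0.216 of the family's RPKM in siCtrl and 89.6% ± 0.217 in siBAP18. The share of STMN3 was 7.47% ± 0.208 and 7.71% ± 0.286, with overlapping libraries. The ratio of STMN1 to STMN3 was 12.0, 12.8 and 12.4 in siCtrl and 11.7, 12.0 and 11.1 in siBAP18. STMN4 took 2.70%, 2.68% and 2.58% of the family's RPKM in siBAP18.

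The ratio of STMN3 to STMN4 in siBAP18 replicates 1, 2 and 3 was 2.83, 2.79 and 3.12. The membrane-anchored members together therefore included STMN4 as a sizeable minority in siBAP18, while in siCtrl they were STMN3 as far as the depth allowed to see.

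**Figure D3:**
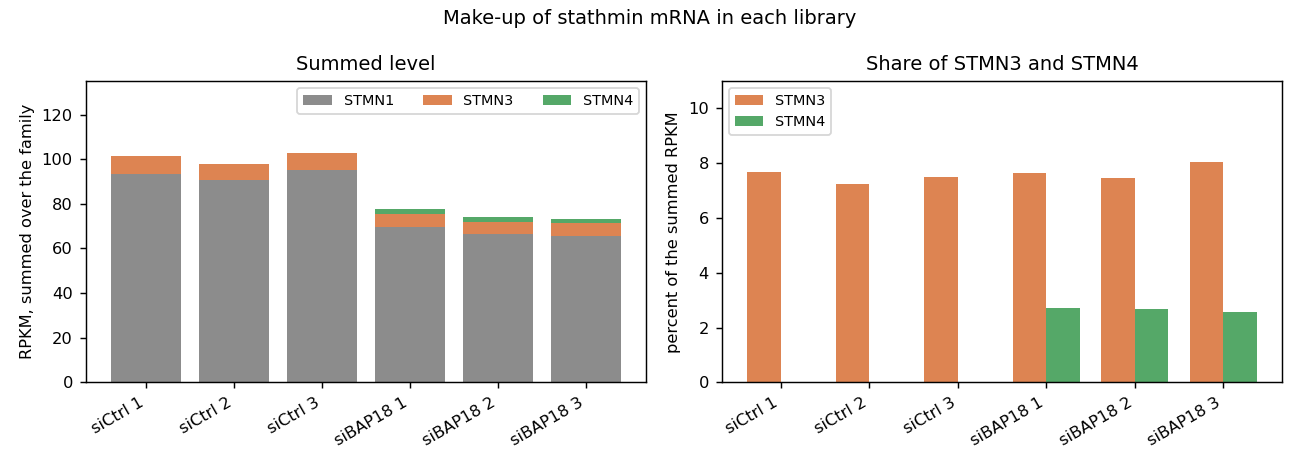
Left, summed RPKM of the stathmin genes in each library, split into STMN1, STMN3 and STMN4. Right, percent of the summed RPKM contributed by STMN3 and STMN4. The sum lies between 97.8 and 103 in siCtrl and between 73.4 and 77.5 in siBAP18, STMN3 stays between 7.26% and 8.03% of it, and STMN4 appears in siBAP18 at 2.58% to 2.70%.

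Stathmins act by binding tubulin heterodimers, so the members were set beside tubulin mRNA. The summed level of 10 alpha tubulin genes was 254 ± 12.8 RPKM in siCtrl and 306 ± 21.4 RPKM in siBAP18. The 9 beta tubulin genes summed to 259 ± 4.49 and 242 ± 10.3 RPKM (SD, n = 3 each). Per 100 RPKM of alpha tubulin there were 40.2, 40.3 and 38.4 RPKM of stathmins in siCtrl, and 25.2, 26.0 and 22.4 in siBAP18. Per 100 RPKM of beta tubulin the means were 38.8 ± 0.517 and 31.0 ± 1.52 RPKM of stathmins. Relative to either tubulin, the groups of libraries did not overlap, and 56.6% of all genes tested had groups without overlap. Because the family was chosen on this contrast, nothing is read from that separation. The ratios to tubulin depend on listed exon lengths too. They compare mRNA and say nothing of the amount of either protein.

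Of 20 tubulin genes tested, 9 rose and 3 fell (45% and 15%, beside 24.5% higher and 25.1% lower among all genes tested), with a median log2 fold change of 0.22 against 0.00102 over all genes tested. TUBB, a main beta tubulin of dividing cells, fell by 1.05 on the log2 scale, from 85.0 to 41.3 RPKM (adjusted p = 1.91e-12, by Benjamini-Hochberg in edgeR's quasi-likelihood test, as for all adjusted p-values given here). TUBD1, a centriole tubulin, and TUBG1, the gamma tubulin of nucleation sites, fell by 0.61 and 0.22. The call of TUBG1 was lost without siCtrl replicate 1 (adjusted p = 0.0602) and without siBAP18 replicate 1 (adjusted p = 0.0546), and that of TUBD1 in the unfiltered limma fit on log2(RPKM + 1) (adjusted p = 0.0746). TUBA1A, an alpha tubulin prominent in neurons, rose by 0.91 (adjusted p = 1.92e-09), TUBA4A by 0.85, TUBB3, the class III isotype of neurons, by 0.67, and TUBA1C by 0.50. Coding sequences of tubulin genes are alike, and the split of reads between them is uncertain.

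Among 33 tested genes for kinases, phosphatases and binding partners of stathmins, 12 fell and 5 rose (36.4% and 15.2%, beside 25.1% lower and 24.5% higher among all genes tested), and the median was −0.085. The mitotic kinase CDK1, which phosphorylates STMN1, fell by 1.25 on the log2 scale, from 8.24 to 3.49 RPKM (adjusted p = 2.83e-12). CDK2, which acts at S phase, fell by 0.88, CAMK2D by 0.67, and the phosphatase subunit PPP1CC by 0.65. MAPK8 (JNK1), a stress kinase that phosphorylates STMN2, fell by 0.39 (adjusted p = 0.00506), a call that did not hold with limma on log2 RPKM (adjusted p between 0.0694 and 0.113). CDKN1B (p27), which binds STMN1, rose by 0.35 (adjusted p = 0.000132). STAT3, another binding partner of STMN1, rose by 0.36, the calcineurin subunit PPP3CB by 0.40, and RGS20, a binding partner of neuronal stathmins, by 0.59.

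Of 24 tested genes on a list of other factors that shorten or sever microtubules or handle tubulin dimers, 11 fell and 6 rose (45.8% and 25%, beside 25.1% lower and 24.5% higher among all genes tested), with a median of −0.17. The list as compiled also held CKAP2, CKAP2L and MCRS1, which are known to stabilize or protect microtubules. Without them, a choice made after the values had been seen, 9 of 21 genes fell and 5 rose (42.9% and 23.8%). FIGNL1, an AAA ATPase of the family of severing enzymes that also acts in DNA repair, fell by 1.25, the mitotic spindle proteins CKAP2 and CKAP2L by 1.09 and 1.04, and the depolymerizing kinesin KIF18B by 0.75. The members that rose included the tubulin folding cofactors TBCC (0.83), TBCD (0.43) and TBCE (0.29) and the centrosomal protein MCRS1 (0.36).

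Of 60 tested genes for proteins that bind along or stabilize microtubules, 28 fell and 10 rose, with a median of −0.18. EML4 fell by 1.08, MAP1A by 1.08, MID1 by 1.03 and MAP7D2 by 0.94. MAP6, a stabilizer of cold-resistant microtubules in neurons, rose by 1.18 from 0.523 RPKM, NAV3 by 1.05, MAP7D1 by 0.71 and TPPP by 0.62. Genes that fell were 46.7% and genes that rose 16.7% of this list, beside 25.1% and 24.5% of all genes tested.

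**Figure D4:**
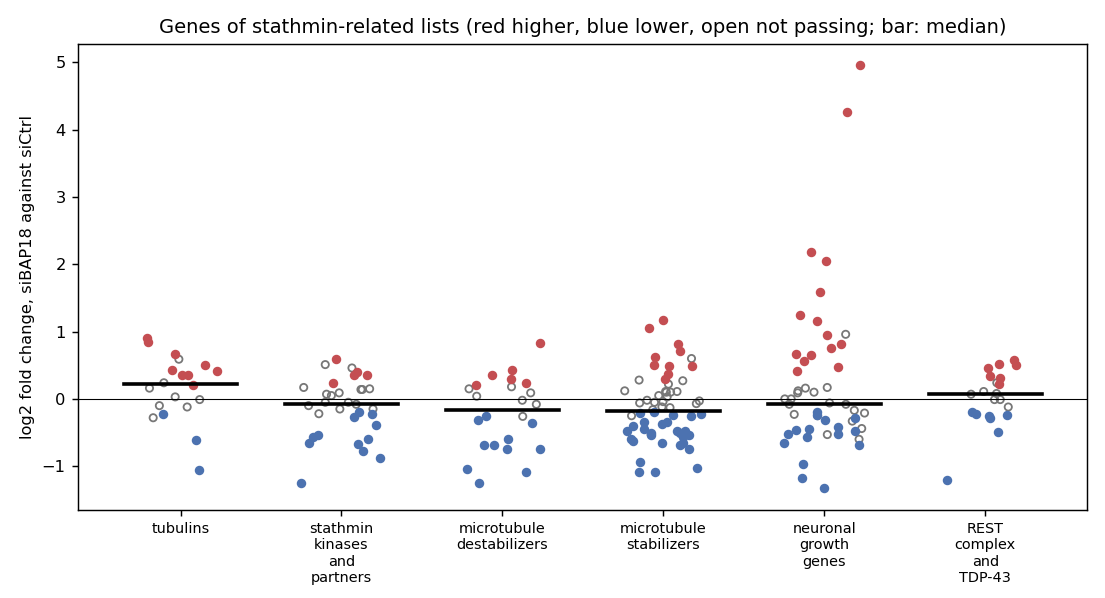
Log2 fold change of siBAP18 against siCtrl (y axis) for the tested genes of 6 lists related to stathmins (x axis). Filled points passed an adjusted p of 0.05 (red higher, blue lower), open points did not, and bars are medians, which run from −0.18 in the microtubule stabilizers to 0.22 in the tubulins. The spread sideways within a list only keeps points apart.

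Because STMN2, STMN3 and STMN4 are known from neurons, 68 genes of neuronal growth and secretion were set beside them, of which 50 could be tested. Of these, 16 fell and 15 rose (32% and 30%, beside 25.1% lower and 24.5% higher among all genes tested), with a median of −0.076. Past an absolute log2 fold change of 1 were 2 genes that fell and 7 that rose. Among all 20776 genes tested, 777 fell and 981 rose past it. The highest changes were in VGF, a secreted neuropeptide precursor, which rose by 4.96 from 0.567 to 17.7 RPKM, and in ATF3, a stress and axon-injury transcription factor, which rose by 4.27 from 1.75 to 34.0 RPKM. KLF6 rose by 2.05 and BEX2 by 1.59. In the same libraries the adhesion protein CNTN1 fell by 1.33, the synaptic fusion protein SNAP25 by 1.17 (adjusted p = 1.15e-12), the neuronal splicing factor RBFOX3 by 0.96 and the granule protein CHGB by 0.52.

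Markers of the neuron (9 listed, 8 tested) gave 4 lower and 2 higher genes, where 25.1% of all genes tested were lower and 24.5% higher. Their summed level was 40.8 to 42.1 RPKM in siCtrl and 44.1 to 47.5 RPKM in siBAP18. The higher sum came from TUBB3, which went from 22.3 to 35.4 RPKM, and without it the sum was 18.4 to 19.6 RPKM in siCtrl and 10.7 to 11 RPKM in siBAP18. GAD1, the other neuron marker that rose, went from 0.0102 to 0.0553 RPKM (log2 fold change 2.43). GAD2 had 3 or fewer counts in every library. Of the 7 neuroendocrine markers listed, NEUROD1, CALCA and GRP were among those at 3 or fewer counts in every library, 1 of 2 tested was lower, and the sum was 6.97 to 7.17 RPKM in siCtrl and 6.13 to 7.13 RPKM in siBAP18. The summed fibroblast markers were 1.27 to 1.41 RPKM in siCtrl and 0.929 to 1.16 RPKM in siBAP18, with 1 of 2 tested genes lower. Endothelial markers summed to 0.142 to 0.183 RPKM and to 0.142 to 0.165 RPKM, with 1 of 2 tested genes lower and 1 higher. The immune markers summed to 29.6 to 31.7 RPKM in siCtrl and 54.7 to 70.3 RPKM in siBAP18, with CD68, a lysosomal protein also made by other cells, the 1 gene of 2 tested that rose. The part of these levels in the STMN4 values was not tested.

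REST represses neuronal genes in other cells, and TDP-43 (TARDBP) guards the splicing of STMN2. Of 21 genes of the REST complex and TARDBP, 7 fell and 7 rose (33.3% each way, near the 25.1% and 24.5% of all genes tested), with a median of 0.07. Those that fell numbered 4 without siCtrl replicate 2, 4 without siBAP18 replicate 1, and 3 or 4 with limma on log2 RPKM. The value for REST was −0.20 on the log2 scale (adjusted p = 0.039) with overlapping groups, and its call was lost in 8 of 15 alternatives (adjusted p between 0.0919 and 0.265), among them those without siCtrl replicate 1 or 2 and without siBAP18 replicate 1 or 3. TARDBP stood at −0.22 (adjusted p = 0.0143), a call that was lost in 5 alternatives (adjusted p between 0.0623 and 0.194), among them those without siCtrl replicate 2 and without siBAP18 replicate 1. Among the genes that bring REST to chromatin or act with it, the phosphatase CTDSPL fell by 1.20, the scaffold SIN3A by 0.49, the demethylase KDM1A by 0.28 and the deacetylase HDAC2 by 0.25, the last with an adjusted p of 0.0755 in the unfiltered limma fit on log2(RPKM + 1). The reader CDYL rose by 0.58, PHF21A by 0.52 and SIN3B by 0.50.

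The 3 listed genes on either side of each member were examined to see whether the neighbourhoods moved with the members. Of these 24 neighbours, 16 were tested, 2 fell and 5 rose, where 25.1% of all genes tested were lower and 24.5% higher. Beside STMN1, PAQR7 rose by 0.50 (adjusted p = 0.000137) at a distance of 12928 bases, whereas AUNIP at −0.02 and PAFAH2 at 0.14 did not pass. RTEL1 begins 128 bases from the STMN3 span on the opposite strand. Its log2 fold change was −0.18 (adjusted p = 0.122), which came to −0.26 (adjusted p = 0.0177) without siBAP18 replicate 3. The readthrough gene RTEL1-TNFRSF6B shares exons with RTEL1, so their values are not separate. On the other side of STMN3, GMEB2 rose by 0.92 (adjusted p = 9.79e-11) at 12664 bases.

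For STMN4, the nearest gene on the side of lower coordinates, RP11-521M14.1, had at most 1 count in any library, and RP11-613H2.2, RP11-613H2.3 and MIR6842 had at most 2. TRIM35, 26467 bases away, rose by 0.34 (adjusted p = 0.000523) and had 1264, 1023 and 1080 counts in siCtrl. PTK2B, 53062 bases away, fell by 0.49 (adjusted p = 1.72e-06). No neighbour of STMN4 therefore came near its bound of 6.73 in the same direction. Beside STMN2, IL7 stood at −0.33 on the log2 scale (adjusted p = 0.0386) and LINC01607 at 1.22 (adjusted p = 0.0403), and each call was lost in 8 alternatives (adjusted p up to 0.166 and 0.167). IL7 lost it without siCtrl replicate 2 or 3 and without siBAP18 replicate 1 or 2, and LINC01607 without siCtrl replicate 1, 2 or 3 and without siBAP18 replicate 3.

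**Figure D5:**
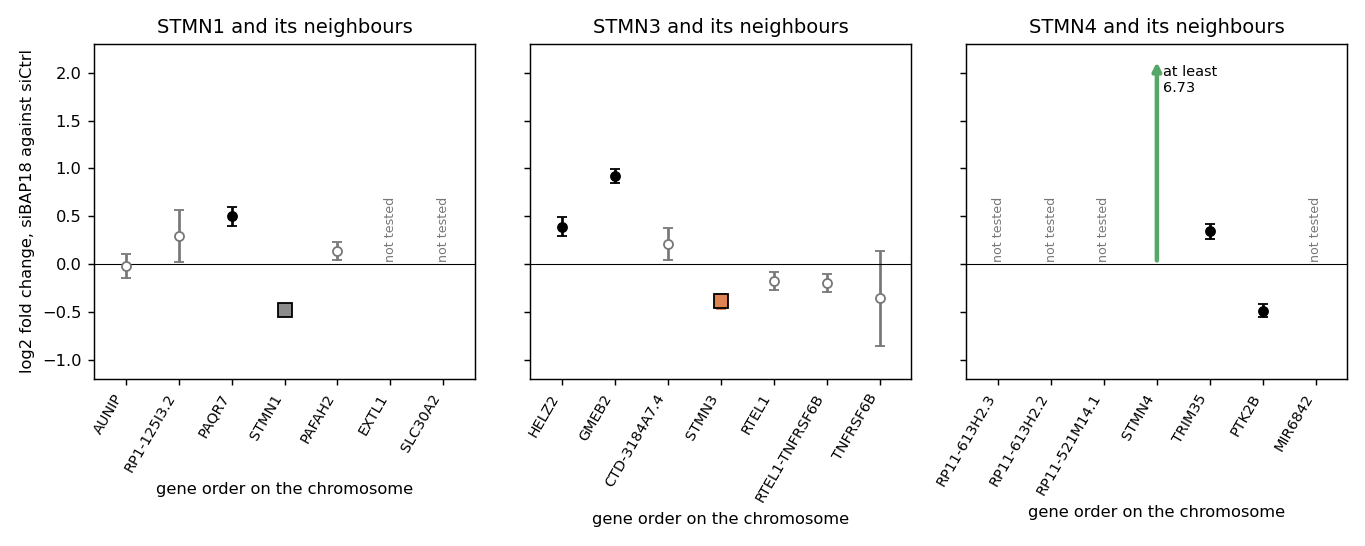
Log2 fold change of siBAP18 against siCtrl (y axis) for STMN1, STMN3 and STMN4 and the 3 listed genes on either side of each, in their order on the chromosome (x axis, not to scale). Squares are members, filled circles neighbours with an adjusted p under 0.05, open circles neighbours that did not pass, and error bars 1 SE. The arrow of STMN4 stands for its bound of at least 6.73 against a siCtrl level of 3 counts. This lies beyond the axis, beside 0.34 for TRIM35 and −0.49 for PTK2B.

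Finally, the genes whose pattern over the 6 libraries was most like that of each member were found as those with the smallest root mean square difference in log2 CPM, centred on the siCtrl mean, among 16147 genes whose average log2 CPM was 0 or more. For STMN1 these were PRR15 (difference 0.0237), SLX1B-SULT1A4 (0.0293), a readthrough with a near copy on the same chromosome, and MFF (0.0306). For STMN3 they were PRR12 (0.0257), PTDSS1 (0.0349) and LACTB2 (0.0355). These 6 genes lay within a few hundredths of a log2 unit of the member in the average library. For STMN4 the measure returned BHLHE41, RP11-331D5.2 and EGR1. With 0 to 2 counts of STMN4 in siCtrl, its distances and their order depend on the small count added before taking logs, so none is given and no likeness is read from them. BHLHE41, a circadian repressor, was at 0.509 CPM in siCtrl and 44.8 CPM in siBAP18, and EGR1, an immediate-early factor, at 0.327 and 26.6 CPM.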

How the data were processed

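The authors deposited whole-number read counts per gene for the 6 libraries, without normalization, and RPKM values, which equal the deposited count per kilobase of listed exon length relative to the library's total. Both tables were used. The submitters' processing notes name the genome builds hg38 and GRCm38, and gene positions were identical to GENCODE 29 on GRCh38 for the members. The aligner, counting program and use of strand in counting are not given in the sources used here, although the labels describe strand-specific, paired-end libraries.

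Genes passing filterByExpr (20776 of 35474) received TMM factors, and siBAP18 was compared with siCtrl by the quasi-likelihood test of edgeR 4.0.16, adjusted by Benjamini-Hochberg over all genes tested, in R 4.3.3, with limma 3.58.1 and DESeq2 1.42.0 in alternatives. Standard errors were derived from the F statistic. The cultures are labelled biological replicates. The chi-square per degree of freedom was 3.94 to 4.56 between siCtrl libraries and 10.05 to 23.32 between siBAP18 libraries. In simulated data for this comparison with 20124 genes tested, 200 of 200 changed genes and 5 others were called. Only these 200 genes were changed there, whereas 10305 genes had an adjusted p under 0.05 in the measured libraries. Whether the simulation matched the wider spread between siBAP18 libraries, or the small size of many reported changes, was not tested. It therefore gives no rate of missed or false calls for the genes reported here.

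The members, the gene lists and the alternatives were chosen with earlier results of these data known. Named were the members, C17orf49, up to 4 genes with the smallest adjusted p in each direction per list at an average log2 CPM of 0 or more, REST, TARDBP, CDK1, MAPK8 and CDKN1B, the 3 nearest genes on each side and the 3 most alike. Some genes that the rule names are not reported here. Levels of other genes are group means, and floors are 3 counts.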

Additional observations from a re-analysis of the deposited data

How the results depend on the processing

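The log2 fold changes of STMN1 and STMN3 kept their sign and moved by less than 1 replicate SD in all 15 alternatives, from −0.51 to −0.44 for STMN1 and from −0.44 to −0.33 for STMN3 with each library left out in turn. The bound of STMN4 lay between 6.67 and 6.76 with each library left out, and scaling by total counts, an alternative chosen after seeing the data, gave 6.73. On the log2(RPKM + 1) scale the STMN4 difference was 1.57, with and without a filter on low values, and with a pseudocount of 0.1 it was 4.32, since the pseudocount exceeds the siCtrl values. No bound was computed for STMN4 with DESeq2's Wald test, with the replicate block or with at least 10 counts in every library, which removes the gene, and none of the alternatives gave a fold for STMN2.

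The number of genes called was 1758 and fell to 348 with limma on log2(RPKM + 1), 909 on log2(RPKM + 0.1) and 345 on log2(RPKM + 1) without a filter, and it was 2051 with no filter on low counts, 1195 with at least 10 counts in every library and 1714 to 1934 with each library left out. Genes of the REST list that fell numbered 7, against 4, 4 and 3 with these limma settings, and 4 to 7 with a library left out (4 without siCtrl replicate 2 and 4 without siBAP18 replicate 1). On the list of factors that shorten or sever microtubules or handle tubulin dimers, as compiled, 11 genes fell. The number was 7 with limma on log2(RPKM + 1) without a filter and 9 without CKAP2, CKAP2L and MCRS1. Of the 59 named genes outside the family that passed the test, 49 passed in each of the 15 alternatives in which they were tested. The others were STMN1P1, REST, TARDBP, IL7, LINC01607, MAPK8, HELZ2, HDAC2, TUBD1 and TUBG1.

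The replicate numbers carried no pairing, with r of −0.017, 0.051 and 0.0038 between same-numbered residuals, and only replicate 2 correlated best with its own number. With the replicate as a block, 1741 genes were called, and STMN1 and STMN3 had log2 fold changes of −0.48 and −0.38. Depth limits STMN2 and the siCtrl level of STMN4, for which no count exceeded the floor of 3.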

Other observations

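Beside the 4 stathmins, the count table lists STMND1 (stathmin domain containing 1), a gene with a stathmin-like domain, and the pseudogene STMN1P1. Both were looked at after their values had been seen. STMND1 had 2, 0 and 0 counts in siCtrl and 0, 4 and 8 counts in siBAP18, so that siBAP18 replicates 2 and 3 were above 3 counts and the groups overlapped. It did not pass the filter on low counts. STMN1P1 had 12, 18 and 6 counts in siCtrl and 24, 42 and 14 counts in siBAP18. Its log2 fold change was 1.05 (SE 0.423, Benjamini-Hochberg adjusted p = 0.0428 in edgeR's quasi-likelihood test), opposite in sign to that of STMN1 at −0.48, and its groups overlapped. The call was lost without siCtrl replicate 1 or 3, without siBAP18 replicate 1 or 2, with DESeq2's Wald test and with limma on log2 RPKM (adjusted p between 0.0588 and 0.267). How reads shared by STMN1P1 and STMN1 were assigned is not given in the sources used here, so the values of STMN1P1 are uncertain.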
